A study of Rattus norvegicus with 8 samples.

Results

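The 10 microtubule genes described here are the tubulin genes Tubb2a, Tubb2b, Tubb5 and Tuba1a, the genes of the microtubule-binding proteins Mapre1, Map1b and Eml4, the tubulin-sequestering gene Stmn1, the kinesin light chain gene Klc1 and the dynactin gene Actr1a. They were chosen by name from the 14217 genes of the array. The choice was not blind to these data, as the study reported Mapre1, Klc1, Eml4 and Actr1a as higher in Dahl rats from these arrays. Counts of the 10 genes beside the shares of all probe sets are thus descriptive and not those of a neutral set. Every set of oligonucleotides (probe set) annotated to 1 of the 10 symbols alone was taken. Of the 10 genes, 9 had such a probe set, 20 probe sets in all. Tuba1a was annotated only on 1 probe set that it shares with Tuba1b and Tuba1c, and that probe set is given apart as the shared alpha-tubulin probe set. Where a gene had more than 1, the brightest by its mean over all arrays is called its main probe set. All 9 main probe sets lay among the brightest 25% on the array.

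Glomeruli were taken from Dahl salt-sensitive rats at 4 and 6 weeks and from spontaneously hypertensive rats (SHR rats) at 4 and 6 weeks, 2 rats in each of the 4 groups, and each of the 8 rats had its own array. The study describes the rats of both strains as males on a low-salt diet. It describes Dahl rats as becoming proteinuric from 6 weeks of age, and SHR rats as hypertensive without proteinuria. These are different strains, so a strain difference holds every genetic difference between them and not that of proteinuria alone. The deposited values are log2 intensities, and a difference of 1 is a doubling.

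Microtubules are hollow polymers of alpha- and beta-tubulin that grow and shrink at their ends. Proteins that bind the growing end or the lattice steady them, proteins of the stathmin family hold free tubulin and favour shrinkage, and the motors kinesin and dynein carry cargo along them. In podocytes, the epithelial cells that cover the glomerular capillaries, microtubules run through the cell body and the primary processes, while the foot processes are built on actin. Dividing cells of any type build their spindle from the same tubulins.

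Over both ages, 5 of the 9 genes with a main probe set were higher in Dahl rats, 1 was lower and 3 did not pass (adjusted p under 0.05 from limma, adjusted over all 31042 probe sets tested). The higher ones were the beta-tubulin genes Tubb5 (2.48-fold), Tubb2a (2.09-fold) and Tubb2b (1.75-fold), Mapre1 (1.81-fold) and Klc1 (1.56-fold). Map1b was lower. On their main probe sets Eml4, Stmn1 and Actr1a did not pass, while a dimmer probe set of Eml4 and of Actr1a was higher in Dahl rats. Of all probe sets tested, 34.7% passed in this comparison, 10.6% as higher and 24.2% as lower. The median log2 difference of the 9 main probe sets was 0.65, beside -0.053 for all probe sets. At 4 weeks 4 of the 9 were higher and 1 lower, and at 6 weeks only Mapre1 was higher. Arrays measure RNA per amount of glomerular RNA, so fewer cells of a type and less RNA per cell cannot be told apart.

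The promoters of 4 of the 5 higher genes are shown because these genes shared a pattern over the rats, with their lowest values in the SHR rats of 4 weeks. All 10 genes had an entry in the RefSeq promoter table of build GRCr8. Each sequence holds the 250 bases before the annotated start, on the strand of the gene. Capitals mark 3 motifs searched on both strands: the CCAAT box (CCAAT or ATTGG), the GC box (GGGCGG or CCGCCC) and the E-box CACGTG. Tubb2a and Tubb2b lie close together on chromosome 17.
Tubb2a, chr17:31001936-31002185, plus strand: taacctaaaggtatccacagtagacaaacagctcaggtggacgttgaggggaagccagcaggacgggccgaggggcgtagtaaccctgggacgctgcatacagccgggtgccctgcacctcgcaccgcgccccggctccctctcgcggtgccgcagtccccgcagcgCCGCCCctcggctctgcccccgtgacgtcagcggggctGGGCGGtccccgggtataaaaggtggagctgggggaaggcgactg
Tubb2b, chr17:30952836-30953085, plus strand: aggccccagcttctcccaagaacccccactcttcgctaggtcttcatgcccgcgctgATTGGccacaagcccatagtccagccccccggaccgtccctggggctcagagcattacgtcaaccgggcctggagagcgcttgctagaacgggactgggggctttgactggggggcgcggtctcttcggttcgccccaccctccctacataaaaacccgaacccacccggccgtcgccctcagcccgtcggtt
Tubb5, chr20:2917327-2917576, plus strand: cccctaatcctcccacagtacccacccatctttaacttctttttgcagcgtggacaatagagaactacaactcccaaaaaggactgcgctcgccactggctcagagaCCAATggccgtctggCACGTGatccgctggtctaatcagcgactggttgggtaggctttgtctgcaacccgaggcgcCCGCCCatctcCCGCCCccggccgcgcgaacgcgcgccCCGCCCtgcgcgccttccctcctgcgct
Mapre1, chr3:162678820-162679069, plus strand: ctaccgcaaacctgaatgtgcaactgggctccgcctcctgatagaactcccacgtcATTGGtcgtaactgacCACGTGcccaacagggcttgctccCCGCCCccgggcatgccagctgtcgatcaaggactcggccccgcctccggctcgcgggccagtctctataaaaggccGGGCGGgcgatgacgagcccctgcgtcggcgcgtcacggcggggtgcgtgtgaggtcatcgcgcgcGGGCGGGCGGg
Tubb2a held 2 GC boxes and neither of the other motifs, while Tubb2b held 1 CCAAT box 193 bases before the start and no GC box. Tubb5 held 1 CCAAT box 143 bases before the start, 3 GC boxes and 1 E-box. Mapre1 held 1 CCAAT box 194 bases before the start, 4 GC boxes, of which the last 2 overlap, and 1 E-box. Of 33469 rat promoters of the same length, 34.0% held a CCAAT box, 30.5% a GC box and 5.59% the E-box. Among the 10 genes, 6 held a CCAAT box, 6 a GC box and 3 the E-box (Mapre1, Tubb5 and Stmn1). No motif was common to all 4 promoters shown. A match is a run of letters, and binding was not measured.

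The beta-tubulin genes were higher in Dahl rats, and the lowest values of each were those of the SHR rats of 4 weeks. Tubb2a encodes a beta-tubulin found in many tissues. Its log2 intensity was 11.45 and 11.32 in the Dahl rats of 4 weeks and 11.57 and 11.79 in those of 6 weeks, against 10.14 and 9.87 in the SHR rats of 4 weeks and 10.97 and 10.90 in those of 6 weeks. All 4 Dahl rats lay above all 4 SHR rats, and within SHR the younger pair lay about 1 unit below the older. The log2 difference over both ages was 1.06 (standard error 0.086, adjusted p = 0.00645 from limma). The groups gave the smallest p that 4 rats against 4 allow (exact two-sided permutation test, p = 0.0286), where the rats are split without regard to age. Tubb2a passed whichever single array was left out, with differences of 1.00 to 1.13.

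Tubb2b encodes a close relative of Tubb2a that is abundant in developing neurons. It had log2 intensities of 8.18 and 8.32 in Dahl rats of 4 weeks and 7.65 and 8.25 in Dahl rats of 6 weeks, against 6.81 and 6.52 in SHR rats of 4 weeks and 8.04 and 7.82 in SHR rats of 6 weeks. Both SHR rats of 4 weeks stood far below the other 6 rats, whose values overlapped. Over both ages the log2 difference was 0.80 (standard error 0.16, adjusted p = 0.0278 from limma), and the exact two-sided permutation test gave p = 0.114. Leaving out either Dahl rat of 4 weeks, SHR 4 weeks replicate 2 or either SHR rat of 6 weeks ended the call (log2 differences of 0.84, 0.77, 0.73, 0.86 and 0.75, adjusted p of 0.0597 to 0.0890).

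Tubb5 encodes a beta-tubulin of many tissues, including dividing cells. On its main probe set the Dahl rats had 9.54 and 9.51 at 4 weeks and 9.12 and 9.63 at 6 weeks, against 7.83 and 7.26 in the SHR rats at 4 weeks and 8.72 and 8.75 at 6 weeks. The strains did not overlap, and the SHR rats of 4 weeks were again the lowest pair. The log2 difference was 1.31 (standard error 0.17, adjusted p = 0.0129 from limma; exact two-sided permutation test, p = 0.0286), and without SHR 6 weeks replicate 2 it was 1.32 with an adjusted p of 0.0517. The other probe set of Tubb5, nearly as bright (means of 8.78 and 8.80), gave a smaller difference of 0.65 (adjusted p = 0.0166). On that probe set the Dahl rats had 9.23, 9.17, 8.81 and 9.22, against 7.96, 7.82, 9.02 and 9.03 in the SHR rats, in order of age and replicate. There the SHR rats of 6 weeks lay within the range of the Dahl rats, so the strains overlapped.

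The shared alpha-tubulin probe set was higher in Dahl rats as well. It had 12.96 and 13.04 in Dahl rats of 4 weeks and 12.84 and 13.12 in Dahl rats of 6 weeks, against 11.92 and 11.64 in SHR rats of 4 weeks and 12.48 and 12.44 in SHR rats of 6 weeks. No Dahl value fell among the SHR values. The log2 difference was 0.87 (1.82-fold, standard error 0.091, adjusted p = 0.00897 from limma), and the call held without any 1 array (0.80 to 0.94). Which of Tuba1a, Tuba1b and Tuba1c gave the signal cannot be told apart. Tubulin genes resemble each other closely, and how far the probe sets named for 1 tubulin also bind another was not tested.

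**Figure D1:**
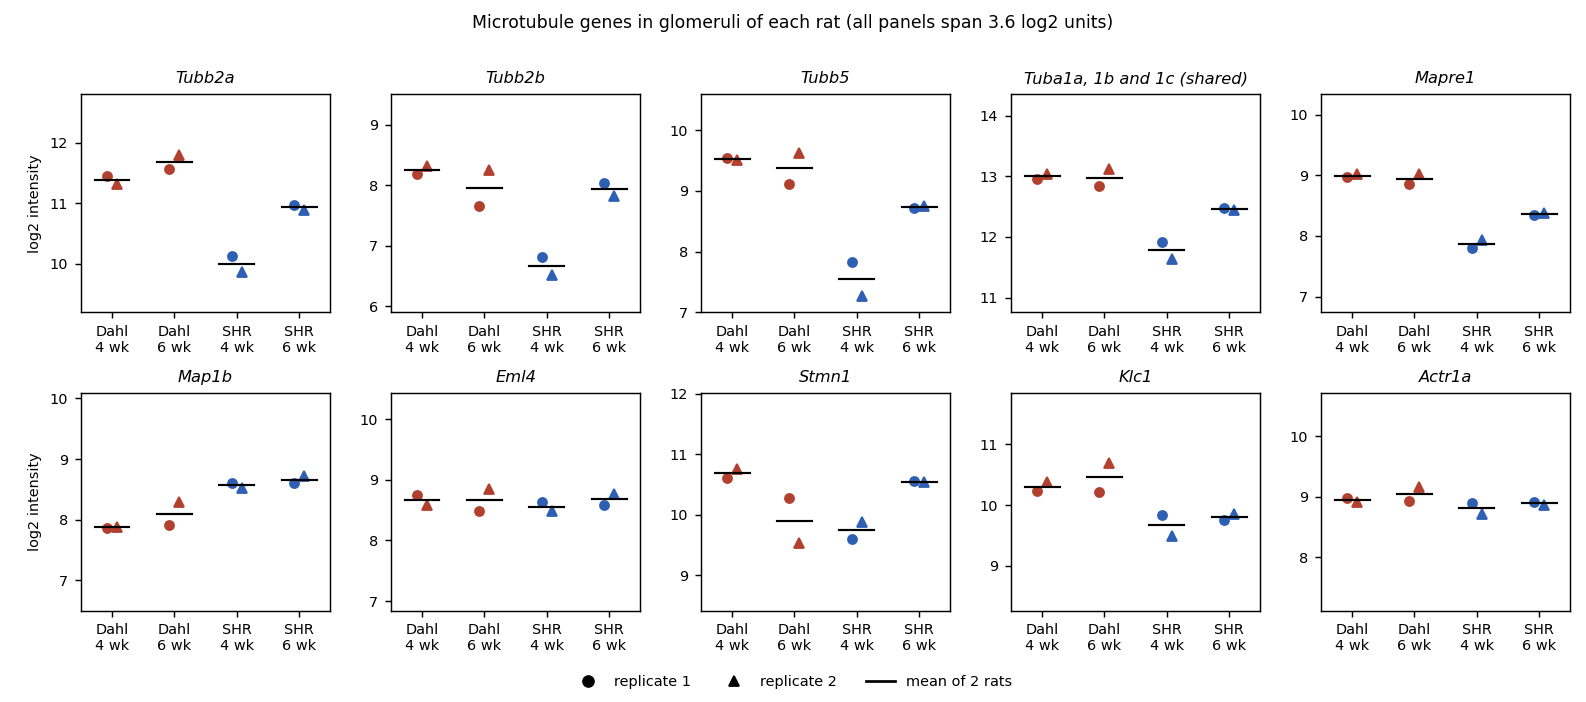
Log2 intensity (vertical axis) of the main probe set of 9 microtubule genes and of the shared alpha-tubulin probe set in every rat, grouped by strain and age. Circles mark replicate 1, triangles replicate 2 and bars their mean; in the 4 tubulin panels and that of Mapre1 the SHR rats of 4 weeks are the lowest pair, at 10.14 and 9.87 for Tubb2a.

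Mapre1 encodes the end-binding protein that tracks growing microtubule plus ends and recruits other proteins there. Its main probe set read 8.97 and 9.02 in Dahl rats of 4 weeks and 8.85 and 9.02 in Dahl rats of 6 weeks, against 7.80 and 7.93 in SHR rats of 4 weeks and 8.34 and 8.37 in SHR rats of 6 weeks. The Dahl rats stayed within a narrow band above all SHR rats (8.97 ± 0.079 in Dahl rats and 8.11 ± 0.29 in SHR rats, SD, n = 4 each). Over both ages the log2 difference was 0.85 (standard error 0.052, adjusted p = 0.00358 from limma), between 0.81 and 0.90 without any 1 array, and past the threshold each time. The 2 other probe sets of Mapre1 gave 0.20 (adjusted p = 0.0636) and 1.14 (2.20-fold, adjusted p = 0.0168), so the size depends on the probe set. The fold difference that the study lists for Mapre1 is close to the last of these.

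Map1b, whose protein binds the lattice and is best known from growing axons, went the other way. Its main probe set read 7.87 and 7.87 in Dahl rats of 4 weeks and 7.91 and 8.29 in Dahl rats of 6 weeks, against 8.60 and 8.53 in SHR rats of 4 weeks and 8.60 and 8.71 in SHR rats of 6 weeks. Each Dahl rat was below each SHR rat, the nearest being Dahl 6 weeks replicate 2. The log2 difference was -0.63 (1.54-fold lower in Dahl rats, standard error 0.091, adjusted p = 0.0153 from limma; exact two-sided permutation test, p = 0.0286). The call was lost without Dahl 4 weeks replicate 2 (-0.63, adjusted p = 0.0540), SHR 6 weeks replicate 1 (-0.65, adjusted p = 0.0502) or SHR 6 weeks replicate 2 (-0.60, adjusted p = 0.0590). The 2 dimmer probe sets of Map1b gave 0.18 (adjusted p = 0.590) and -0.13 (adjusted p = 0.0880), and the mean of its 3 probe sets gave -0.19 (adjusted p = 0.203), which did not pass. Markers of neurons and Schwann cells, the cells in which Map1b is best known, were dim in the same arrays. Of 12 measured, 3 were lower (25%) and 1 was higher (8.33%) in Dahl rats over both ages. These shares are close to the 24.2% lower and 10.6% higher of all probe sets. The score of these markers is the median of the 12 deviations from the mean across arrays. It was -0.076 to -0.019 in Dahl rats, against 0.022 to 0.043 in SHR rats, without overlap and in the same direction as Map1b. Of all probe sets, 42.1% were lower in Dahl rats without overlap. The median log2 difference of the 12 was -0.077, beside -0.053 for all probe sets. Of the 12, 7 lay among the dimmest 25% of probe sets, and their summed unlogged intensity was 75 to 84 in Dahl rats and 80 to 84 in SHR rats. Their part in the difference of Map1b was not tested.

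Eml4 encodes a protein that binds and steadies the microtubule lattice. Its main probe set read 8.76, 8.58, 8.49 and 8.85 in the Dahl rats, in order of age and replicate, and 8.63, 8.48, 8.59 and 8.76 in the SHR rats. The strains covered the same range, and the log2 difference was 0.049 (standard error 0.11, adjusted p = 0.718 from limma). The next brightest gave -0.10 (adjusted p = 0.459). The dimmest read 7.21, 7.06, 7.05 and 7.37 in the Dahl rats, against 6.44, 6.23, 6.26 and 5.85 in the SHR rats, without overlap. On it Eml4 was higher in Dahl rats by 0.98 (1.97-fold, adjusted p = 0.0128). The study lists a 1.97-fold difference for Eml4 without naming a probe set, which is the value of this dimmest one. The 3 probe sets of this gene thus do not give 1 answer.

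Stmn1 encodes stathmin, which holds free tubulin and promotes shrinkage, and which is abundant in proliferating cells. It read 10.61 and 10.76 in Dahl rats of 4 weeks and 10.27 and 9.54 in Dahl rats of 6 weeks, against 9.60 and 9.89 in SHR rats of 4 weeks and 10.56 and 10.53 in SHR rats of 6 weeks. At 4 weeks both Dahl rats were above both SHR rats, and at 6 weeks both were below. Over both ages these opposite gaps averaged to 0.15 (standard error 0.18, adjusted p = 0.530 from limma; exact two-sided permutation test, p = 0.743). Neither the gap at 4 weeks (0.94, adjusted p = 0.0788) nor that at 6 weeks (-0.65, adjusted p = 0.152) passed. Without Dahl 6 weeks replicate 1 the gap at 6 weeks was -1.01 and passed (adjusted p = 0.0355), and without Dahl 6 weeks replicate 2 it was -0.28. The gap at 4 weeks passed when 1 Dahl rat of 6 weeks was left out, whichever it was (adjusted p = 0.0274), with an intensity trend and robust variance (adjusted p = 0.0335) and with a minimum mean of 5 (adjusted p = 0.0327).

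Klc1 encodes a light chain of conventional kinesin, which links the motor to its cargo. Its main probe set read 10.23 and 10.37 in Dahl rats of 4 weeks and 10.22 and 10.70 in Dahl rats of 6 weeks, against 9.84 and 9.49 in SHR rats of 4 weeks and 9.76 and 9.85 in SHR rats of 6 weeks. On this probe set the strains did not overlap, and the gap was about the same at both ages. The log2 difference was 0.65 (standard error 0.14, adjusted p = 0.0319 from limma; exact two-sided permutation test, p = 0.0286). It held without Dahl 6 weeks replicate 1 or SHR 4 weeks replicate 1 and lost its call without any 1 of the other 6 arrays, at differences of 0.52 (without Dahl 6 weeks replicate 2) to 0.68 (without Dahl 4 weeks replicate 1) and an adjusted p of up to 0.0952. A pair of further probe sets of Klc1 were also higher in Dahl rats, by 0.67 (adjusted p = 0.00315 from limma) and 0.86 (adjusted p = 0.0363). The last, among the dimmest 25% of the array, gave -0.031 (adjusted p = 0.209). On the second brightest probe set the gap was 0.87 at 4 weeks and 0.47 at 6 weeks. That change did not pass (interaction -0.40, adjusted p = 0.147).

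Actr1a encodes the actin-related protein that forms the filament of dynactin, the partner of dynein. Its main probe set read 8.97, 8.91, 8.93 and 9.15 in the Dahl rats, against 8.90, 8.71, 8.92 and 8.87 in the SHR rats, in order of age and replicate. The values overlapped narrowly, with the second Dahl rat of 4 weeks just under the first SHR rat of 6 weeks. The log2 difference was 0.14 (standard error 0.071, adjusted p = 0.158 from limma; exact two-sided permutation test, p = 0.0571). The dimmer probe set read 6.87, 7.10, 7.00 and 7.12 in the Dahl rats, against 6.49, 6.39, 6.38 and 6.32 in the SHR rats. These did not overlap, and the difference of 0.62 passed (1.54-fold, adjusted p = 0.00904), so for Actr1a too the call turns on the probe set. The fold difference that the study lists for Actr1a is close to that of this dimmer probe set.

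Over all 20 probe sets of the 9 genes, 11 were higher in Dahl rats and 1 was lower, with a median of 0.63. Among the 9 main probe sets, 5 separated the 4 Dahl rats from the 4 SHR rats without overlap. These were Mapre1, Klc1, Tubb2a and Tubb5, higher in Dahl rats, and Map1b, lower. Of all probe sets tested, 50.3% showed such a separation, 8.15% with Dahl rats higher and 42.1% with Dahl rats lower.

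**Figure D2:**
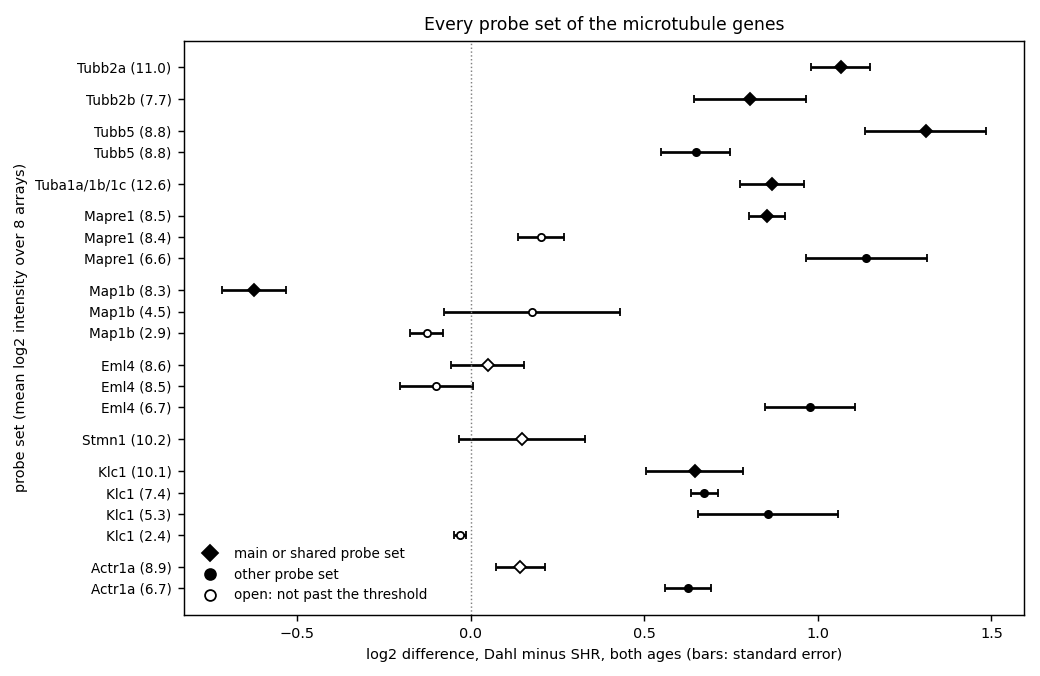
Log2 difference between Dahl and SHR rats over both ages (horizontal axis, Dahl minus SHR) for each of the 20 probe sets and the shared alpha-tubulin probe set, with the mean log2 intensity in brackets. Diamonds are main or shared probe sets, circles other probe sets, filled symbols those past the threshold and bars 1 standard error; the 3 probe sets of Eml4 lie at 0.049, -0.10 and 0.98.

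At 4 weeks, before proteinuria is described to begin, the 3 beta-tubulin genes and Mapre1 were higher in Dahl rats and Map1b was lower. Tubb5 was 3.94-fold higher in Dahl rats (log2 difference 1.98, standard error 0.25, adjusted p = 0.0176 from limma), Tubb2b 3.01-fold (1.59, standard error 0.23, adjusted p = 0.0230), Tubb2a 2.61-fold (1.38, standard error 0.12, adjusted p = 0.00916) and Mapre1 2.19-fold (1.13, standard error 0.074, adjusted p = 0.00524). The shared alpha-tubulin probe set was higher by 1.22 (adjusted p = 0.0127), and by 1.18 without Dahl 4 weeks replicate 2, which ended its call (adjusted p = 0.0645). Map1b was lower (-0.69, adjusted p = 0.0366). On their main probe sets Klc1 (0.63, adjusted p = 0.10), Eml4 (0.11) and Actr1a (0.14) did not pass. The second probe set of Klc1 (0.87, adjusted p = 0.00471 from limma) and the dimmer one of Actr1a (0.54, adjusted p = 0.0320) were higher in Dahl rats. The remaining probe sets of Klc1 and Eml4 did not pass. Of all probe sets, 12.0% passed at 4 weeks, 5.63% as higher and 6.41% as lower, and the median over the 9 genes was 0.94. Mapre1 and Tubb2a kept their calls whichever array was left out. Tubb5 lost its call without any 1 of 5 arrays, both Dahl rats of 4 weeks, SHR 4 weeks replicate 2 and both SHR rats of 6 weeks (1.69 to 1.99, adjusted p of up to 0.0785). Tubb2b and Map1b each lost it without any 1 of 6 arrays, all but the Dahl rats of 6 weeks (1.45 to 1.73 for Tubb2b, adjusted p of up to 0.102, and -0.73 to -0.65 for Map1b, adjusted p of up to 0.141). Fitting only the arrays of 4 weeks ended the calls of Tubb2a (adjusted p = 0.0544), Tubb2b (adjusted p = 0.0517), Tubb5 (adjusted p = 0.0714) and the shared alpha-tubulin probe set (adjusted p = 0.0581). The p values at 1 age rest on 2 rats per group and a spread shared by all 8 arrays.

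At 6 weeks, when proteinuria is described to begin, Mapre1 was the only main probe set past the threshold, 1.49-fold higher in Dahl rats (log2 difference 0.58, standard error 0.074, adjusted p = 0.0368 from limma). Of all probe sets 3.28% passed, 1.65% as higher and 1.63% as lower. The call of Mapre1 was kept only without Dahl 6 weeks replicate 1 and was lost without each of the other 7 arrays, at 0.50 to 0.60 and an adjusted p of up to 0.134. The other probe sets of Mapre1 did not pass at 6 weeks, at -0.14 (adjusted p = 0.316) and 1.16 (adjusted p = 0.0736), and the mean of the 3 gave 0.53 (adjusted p = 0.0712). Tubb2a narrowly missed the threshold (0.75, adjusted p = 0.0514), and the differences of Tubb5 (0.64, adjusted p = 0.145), Klc1 (0.66, adjusted p = 0.114) and Map1b (-0.56, adjusted p = 0.0811) did not pass. Tubb2b had nearly the same mean in both strains at this age, with a log2 difference of 0.019 (adjusted p = 0.954) that became -0.029 after quantile normalization and -0.013 after median centring. The dimmer probe sets of Eml4 (1.15, adjusted p = 0.0494) and Actr1a (0.71, adjusted p = 0.0392) and the second of Klc1 (0.47, adjusted p = 0.0320) were higher in Dahl rats at 6 weeks. The median over the 9 main probe sets was 0.15.

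**Figure D3:**
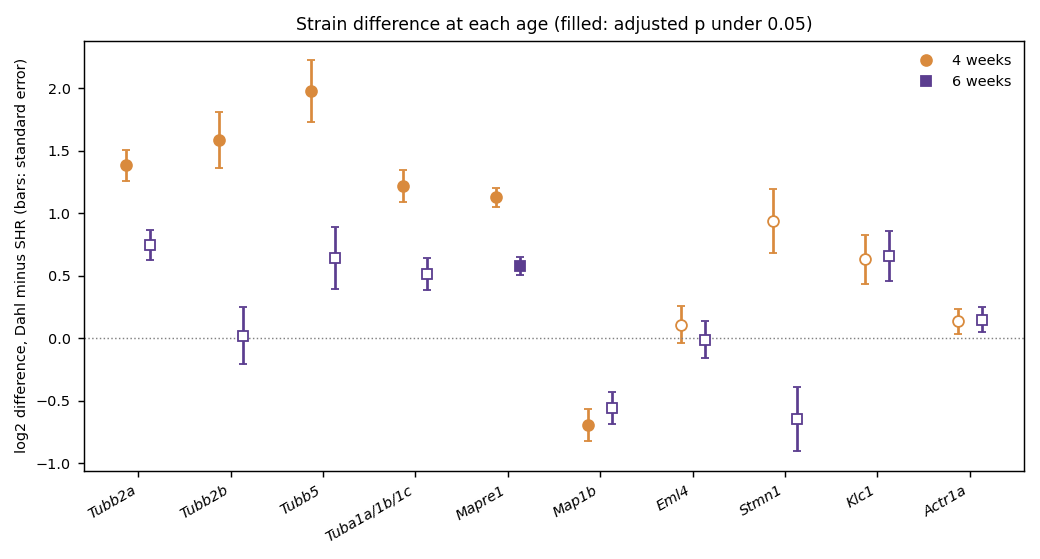
Log2 difference between Dahl and SHR rats (vertical axis, Dahl minus SHR) at 4 weeks (circles) and 6 weeks (squares) for each main probe set and the shared alpha-tubulin probe set. Bars are 1 standard error and filled symbols passed the threshold; Tubb5 lies at 1.98 at 4 weeks and 0.64 at 6 weeks, and Stmn1 at 0.94 and -0.65.

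The comparison of the ages within a strain asked whether the members moved as the rats grew older. Between 4 and 6 weeks in SHR rats all 9 main probe sets had differences above 0 (median 0.49), and 1 of them passed, Tubb2a, higher at 6 weeks by 0.93 (1.91-fold, standard error 0.12, adjusted p = 0.0368 from limma). Of all probe sets 2.42% passed in this comparison, 1.50% as higher and 0.915% as lower. The call of Tubb2a was kept only without 1 of the Dahl rats of 6 weeks and was lost without any other array (0.80 to 1.07, adjusted p of up to 0.174). Tubb2b (1.27, adjusted p = 0.0731), Tubb5 (1.19, adjusted p = 0.0989), Stmn1 (0.81, adjusted p = 0.238) and Mapre1 (0.49, adjusted p = 0.0508) did not pass. The other probe set of Tubb5 did (1.14, adjusted p = 0.0331). In Dahl rats none of the 9 passed, and 0.0805% of all probe sets did, 0.0515% as higher and 0.0290% as lower. The unadjusted limma p in Dahl rats was under 0.05 for 1 of the 9, beside 2718 of all 31042 probe sets. There the differences were 0.29 for Tubb2a, -0.30 for Tubb2b, -0.15 for Tubb5, -0.061 for Mapre1 and -0.78 for Stmn1, the last mostly from Dahl 6 weeks replicate 2 (-0.41 without it). Without Dahl 6 weeks replicate 1 that of Stmn1 was -1.15 and passed (adjusted p = 0.0482).

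Whether the strain difference itself changed between the ages was tested by the interaction, the difference at 6 weeks minus that at 4 weeks. None of the 9 main probe sets passed, and 0.519% of all probe sets did, 0.235% above 0 and 0.283% below. Before adjustment 5 of the 9 had a limma p under 0.05, beside 3404 of all 31042 probe sets. The interaction was -1.59 for Stmn1 (adjusted p = 0.200 from limma; -1.95 and 0.0443 without Dahl 6 weeks replicate 1), -1.57 for Tubb2b (adjusted p = 0.165), -1.34 for Tubb5 (adjusted p = 0.252), -0.64 for Tubb2a (adjusted p = 0.271) and -0.55 for Mapre1 (adjusted p = 0.147). It was near 0 for Klc1, Eml4, Map1b and Actr1a, between -0.12 and 0.14. That the tubulin differences were smaller at 6 weeks than at 4 weeks was thus not past the threshold. The median over the 9 genes was -0.55.

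The markers of other cells are given because several moved with the microtubule genes. The score of a list in an array is the median over its genes of the deviation from their mean over the 8 arrays. Of 12 cycling cell markers, such as Mki67 and Top2a, 11 were measured. Their score was 0.80 and 1.00 in Dahl rats of 4 weeks and -0.48 and -0.52 in Dahl rats of 6 weeks, against -0.85 and -1.18 in SHR rats of 4 weeks and 0.67 and 0.53 in SHR rats of 6 weeks. The group means of Stmn1 stood in the same order, highest in Dahl rats of 4 weeks, then SHR rats of 6 weeks, Dahl rats of 6 weeks and SHR rats of 4 weeks. At 4 weeks 10 of the 11 were higher in Dahl rats (median 1.96), at 6 weeks 6 were lower (median -0.93), and 8 passed the interaction (median -2.87). Of all probe sets, 5.63% were higher at 4 weeks, 1.63% were lower at 6 weeks and 0.283% passed below 0 in the interaction. The summed unlogged intensity of the 11 markers ran from 1135 to 2081 in Dahl rats and from 872 to 2005 in SHR rats. None of these markers lay among the dimmest 25%. Without 1 array, 5 to 10 of them passed at 4 weeks, 0 to 5 at 6 weeks and 1 to 7 in the interaction.

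Markers of mesangium and smooth muscle, 8 in number, included 7 that were higher in Dahl rats, with scores of 0.36 to 0.53 in Dahl rats and -0.59 to -0.19 in SHR rats (summed intensity 2986 to 3665 in Dahl rats and 1549 to 2076 in SHR rats). Podocyte markers were higher in 4 of 8 (scores of 0.030 to 0.46 in Dahl rats and -0.55 to -0.051 in SHR rats, summed intensity 20925 to 28705 in Dahl rats and 14805 to 20984 in SHR rats), and endothelial markers in 4 of 7. None of the 8 measured podocyte markers, which mark the labelled tissue, lay among the dimmest 25%. Proximal tubule markers were lower in 3 of 12, with scores of 0.18, -0.18, -0.26 and -1.98 in the Dahl rats, against 0.69, 0.91, 0.24 and 0.39 in the SHR rats (summed intensity 13194 to 39103 in Dahl rats and 42530 to 59681 in SHR rats). Distal nephron markers were lower in 4 of 9, with scores of -0.89 to -0.0045 in Dahl rats and 0.037 to 0.72 in SHR rats (summed intensity 3020 to 6067 in Dahl rats and 6742 to 9552 in SHR rats). Parietal epithelium markers were lower in 3 of 7 (scores of -0.52 to 0.037 in Dahl rats and 0.063 to 0.29 in SHR rats, summed intensity 2406 to 3677 in Dahl rats and 3854 to 4821 in SHR rats). The endothelial scores were -0.032 to 0.62 in Dahl rats and -0.42 to -0.093 in SHR rats. Leukocyte markers were higher in 5 and lower in 2 of 10, and 3 of them lay among the dimmest 25%. Their scores were -0.012, -0.002, 0.39 and 0.94 in the Dahl rats, against -0.75, -0.95, 0.31 and 0.195 in the SHR rats, in order of age and replicate. The SHR rats of 4 weeks were the lowest pair, as for the tubulin genes and Mapre1. These counts stand beside 10.6% higher and 24.2% lower over all probe sets, and 3 of 12 lower is close to the share of all probe sets. The part of these cell types in the microtubule results was not tested. Dahl 6 weeks replicate 2 stood apart by its low tubule score. Without it the log2 differences over both ages were 0.81 for Mapre1, 1.01 for Tubb2a, 1.18 for Tubb5 and 0.65 for Tubb2b. They were 0.52 for Klc1 and -0.72 for Map1b.

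**Figure D4:**
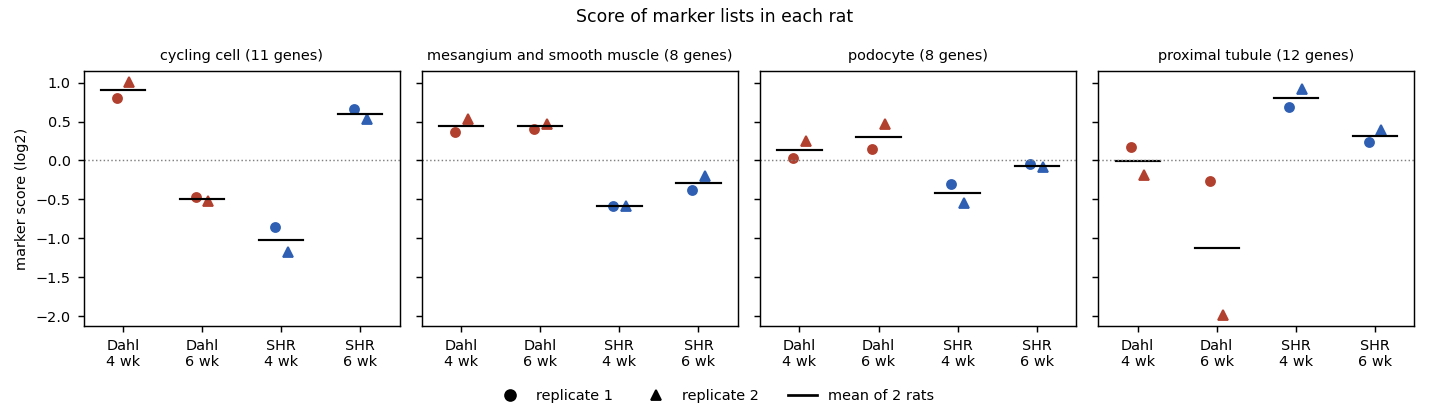
Score of 4 marker lists (vertical axis, log2, the median deviation of the genes from their means over the 8 arrays) in every rat, grouped by strain and age. Circles mark replicate 1, triangles replicate 2 and bars their mean; the cycling cell score lies at 0.80 and 1.00 in Dahl rats of 4 weeks and at -0.85 and -1.18 in SHR rats of 4 weeks.

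Among other genes of the microtubule system both directions were seen. Of 125 listed genes, 107 had a probe set of their own, and over both ages 26 were higher (24.3%) and 9 lower (8.41%), with a median log2 difference of 0.11, beside 10.6% higher and 24.2% lower and a median of -0.053 for all probe sets. Their main probe sets also include dim ones, and several of the falls are small falls of dim probe sets. After quantile normalization the dim Mtus2 (-0.0019, adjusted p = 0.933 from limma), Fignl1 (-0.0025, adjusted p = 0.910), Dync1i1 (-0.024, adjusted p = 0.246) and Kif2c (-0.23, adjusted p = 0.0651) no longer passed. At 4 weeks 18 were higher and 2 lower, at 6 weeks 5 were higher, and with age in Dahl rats none passed. Of all probe sets, 5.63% were higher and 6.41% lower at 4 weeks, and 1.65% were higher and 1.63% lower at 6 weeks. With age in Dahl rats 0.0805% of all probe sets passed. In that last comparison 9 of the 107 had an unadjusted limma p under 0.05, beside 2718 of all 31042 probe sets. Without 1 array, 8 to 49 of the 107 passed over both ages and 4 to 26 at 4 weeks.

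Of 9 other tubulin genes, 2 were higher and 3 lower over both ages. Tubb6, a beta-tubulin gene, was higher by 1.22 (adjusted p = 0.0107 from limma), although its second, dim probe set gave -0.20 (adjusted p = 0.0335). Tubb4b, another beta-tubulin gene, was higher by 0.48 (adjusted p = 0.0111), from log2 intensities of 10.65, 10.55, 10.26 and 10.45 in the Dahl rats, against 9.62 and 9.65 in the SHR rats of 4 weeks, with the SHR rats of 6 weeks among the Dahl rats. Tuba4a, an alpha-tubulin gene, was lower by a log2 difference of -1.47 (adjusted p = 0.0314). It read 8.66, 8.12, 8.26 and 7.08 in the Dahl rats, the lowest in Dahl 6 weeks replicate 2, against 9.19, 9.70, 9.52 and 9.57 in the SHR rats. Tube1, of the centriole tubulins, was lower by -0.27 at low signal, and its second probe set gave 0.40 (adjusted p = 0.109).

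Among 18 genes that bind the lattice, 6 were higher and 2 lower. Dclk1, a microtubule-binding kinase, had a log2 difference of 2.06 (adjusted p = 0.00490), with 5.01, 4.53, 4.66 and 5.07 in the Dahl rats, against 2.37, 2.36, 3.13 and 3.15 in the SHR rats. The SHR values are near the floor of the array, so the size is uncertain, and its 3 dimmer probe sets gave -0.028, -0.075 and 0.033, none past the threshold. Map2 was higher by 0.79 (adjusted p = 0.0351). Mtcl1, which crosslinks microtubules, was lower (-0.54, adjusted p = 0.0239), as was Mtus2 (-0.065, adjusted p = 0.0347), which was dim. Of 13 genes of growing ends, 5 were higher and none lower. The 5 were led by Clip2, a plus-end linker (1.09, adjusted p = 0.0248 from limma), and Tacc1 (0.65, adjusted p = 0.0288). At an unadjusted limma p under 0.05 there were 6 of the 13, beside 16474 of all 31042 probe sets.

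Of 22 kinesin genes, 4 were higher and 2 lower. Kif1c, which carries vesicles toward the cell edge, was higher by 1.11 (adjusted p = 0.00706 from limma), and its 4 SHR rats lay close together, at 7.86, 7.84, 7.83 and 7.85, against 9.12, 8.75, 9.05 and 8.88 in the Dahl rats. Kif2a, a depolymerising kinesin, was higher by 0.66 (adjusted p = 0.0296). The spindle kinesin genes Kif11 (-1.79, adjusted p = 0.0361) and Kif2c (-0.23, adjusted p = 0.0405, at low signal) were lower. The second, dimmer probe set of Kif2c gave 0.080 (adjusted p = 0.548 from limma). The mean of the Kif2c probe sets gave -0.073 (adjusted p = 0.427), which did not pass. Kif11 read 6.82, 6.75, 6.21 and 4.51 in the Dahl rats, against 8.12, 8.51, 7.09 and 7.71 in the SHR rats, and its second probe set was also lower (-1.03, adjusted p = 0.0446). At 4 weeks, where 10 of the 11 cycling cell markers were higher in Dahl rats, the log2 difference of Kif11 was -1.53 (adjusted p = 0.135).

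Of 21 genes of dynein and dynactin, 5 were higher, led by the adaptor gene Bicd2 (0.73, adjusted p = 0.0298) and the dynactin subunit gene Dctn5 (0.51, adjusted p = 0.00755), and Dync1i1, which was dim, was lower (-0.076, adjusted p = 0.0260). Of 7 destabilising and severing genes none was higher and Fignl1, also dim, was lower (-0.069, adjusted p = 0.0342). Of 17 genes of tubulin folding and modification, 4 were higher and none lower. An unadjusted limma p under 0.05 was found for 8 of the 17, beside 16474 of all 31042 probe sets. Both vasohibin genes, whose enzymes remove the terminal tyrosine of alpha-tubulin, were among the 4, with Vash2 higher by 1.77 (3.40-fold, adjusted p = 0.0164) and Vash1 by 0.96 (1.95-fold, adjusted p = 0.00799). Vash1 read 8.12, 8.28, 8.37 and 8.50 in the Dahl rats, all above the 4 SHR rats. The second probe set of Vash2 was higher too (0.99, adjusted p = 0.0409), while another, near the floor, was lower (-0.061, adjusted p = 0.0371). Of the 20 genes named here from the wider set, 6 kept their call over both ages without any 1 array: Tubb6, Tubb4b, Dclk1, Kif1c, Dctn5 and Vash1. Tubb4b nevertheless did not pass in the additive model (adjusted p = 0.108) or with strain alone (adjusted p = 0.112). The other 14 lost it without 3 to 7 arrays taken out in turn.

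**Figure D5:**
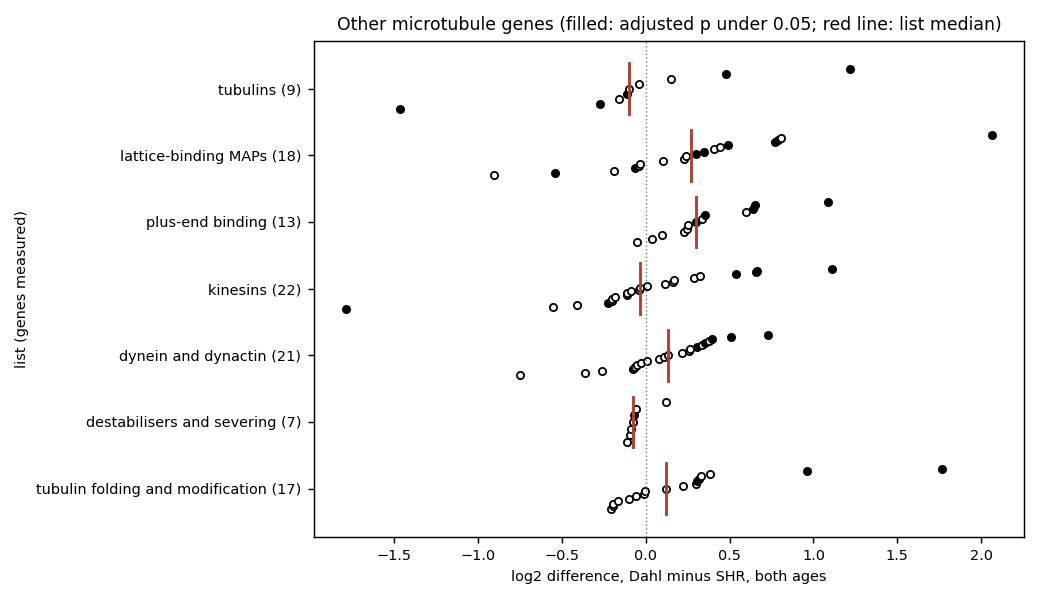
Log2 difference between Dahl and SHR rats over both ages (horizontal axis, Dahl minus SHR) for 107 other microtubule genes in 7 lists. Each point is the main probe set of a gene, filled where it passed the threshold, and the red line is the median of the list, from -0.097 for other tubulins to 0.30 for genes of growing ends.

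At 6 weeks the 5 genes of the wider set past the threshold were Dclk1 (1.73, adjusted p = 0.0327 from limma), Kif1c (1.13, adjusted p = 0.0327), Vash1 (1.08, adjusted p = 0.0334), Clip1, a plus-end linker (0.75, adjusted p = 0.0145), and Tacc2 (0.31, adjusted p = 0.0459). None of these calls held without each array in turn, and Clip1 lost its call without the fewest, 3 arrays (Dahl 6 weeks replicate 2 and either SHR rat of 6 weeks). Between the ages in SHR rats 5 of the 107 were higher at 6 weeks and 1 was lower, beside 1.50% higher and 0.915% lower of all probe sets. The strain difference changed between the ages for 3 genes, Clip1 and the spindle kinesins Kif20a and Kif23. Of all probe sets 0.519% passed the interaction.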

How the data were processed

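RNA of isolated glomeruli was hybridized to Affymetrix rat arrays. The authors deposited log2 intensities, after background correction, normalization of the arrays and summary of the probes into probe sets. The submitters' processing notes name RMA and GCRMA without versions and do not say which of them was used for the table. Background correction of this kind makes differences at low signal uncertain. No further normalization was applied. The arrays had medians of 4.11 to 4.16 and correlated at 0.989 to 0.997 within groups. From 31099 probe sets, 57 controls were left out. The number of arrays limits the precision. The limma p values judge a difference against the spread between the 2 rats of a group, pooled over the 4 groups. Gene names come from the platform annotation, which names 1 gene for 20826 probe sets and several for 436.

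A model of 4 group means was fitted to all probe sets with limma 3.58.1 (R 4.3.3; 4 residual and 0.921 prior degrees of freedom), with Benjamini-Hochberg adjustment over all 31042 probe sets, a threshold of 0.05, and contrasts of strain over both ages and at 4 and 6 weeks, of age within each strain, and their interaction. The code was tested on simulated data. Exact permutation tests compared 4 Dahl with 4 SHR rats. The members and lists were chosen with earlier results of these data known. Besides the members, up to 2 genes with the largest rise and up to 2 with the largest fall of each wider list are named, and any wider-list gene past the threshold at 6 weeks, in an age difference or in the interaction where there were 5 or fewer. Alternatives changed the variance model (trend and robust) and the scaling (quantiles or medians). Others changed the probe sets (a minimum mean of 5, the highest median, or the mean of a gene's probe sets). Further ones changed the design (replicate block, strain and age additive, strain alone, 1 age at a time, each array left out). The last changed the threshold (0.1) and the test (Student's t-test). The study names that t-test for mRNA and protein levels, and it names no test for the arrays themselves. Promoter sequences are RefSeq's (GRCr8).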

Additional observations from a re-analysis of the deposited data

Results flagged for a closer look

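Of 18 sets of 4 rats of 1 strain examined, 1 held a rat far from the others. Chance gives about 1 in 20 for separate sets of rats of 1 kind. Here each set joins rats of 4 and 6 weeks, and all sets come from the same 8 rats, so that rate is only a rough guide. For Map1b, Dahl 6 weeks replicate 2 read 8.29, while the other 3 Dahl rats lay between 7.87 and 7.91; its gap to the nearest was 0.891 of the range, above Dixon's limit for 4 values. This is also the rat with the lowest tubule score, and without it Map1b differed between the strains by -0.72 over both ages.

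The strain difference of 3 of the 107 genes of the wider set changed between the ages by the interaction test, which 0.519% of all probe sets passed. Clip1 had an interaction of 0.79 (adjusted p = 0.0454 from limma), with 6.90, 6.99, 7.02 and 7.09 in the Dahl rats, against 6.94, 7.04, 6.27 and 6.34 in the SHR rats, in order of age and replicate. Only the SHR rats of 6 weeks stood low, and its second probe set gave 0.40 (adjusted p = 0.854). Kif20a, a kinesin of cell division, had an interaction of -2.23 (adjusted p = 0.0410), with 5.48, 5.62, 4.25 and 4.01 in the Dahl rats, against 4.20, 4.10, 4.79 and 5.14 in the SHR rats. Kif23, another kinesin of cell division, had an interaction of -2.73 (adjusted p = 0.0450), with 6.34, 6.09, 4.80 and 5.34 in the Dahl rats, against 4.23, 4.16, 5.76 and 5.81 in the SHR rats, while its second, dim probe set gave -0.30 (adjusted p = 0.880). For both kinesins the strain order at 4 weeks was turned round at 6 weeks, as for the cycling cell markers, of which 8 of 11 passed the interaction. Clip1 lost its call without any 1 array, Kif20a without 7 arrays and Kif23 without 6.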

How the results depend on the processing

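Leaving out 1 array changed the counts. Of the 9 genes, 2 to 6 then passed over both ages, 2 to 6 at 4 weeks, 0 to 4 at 6 weeks, 0 to 1 with age in Dahl rats, 0 to 3 with age in SHR rats and 0 to 1 in the interaction. Of the 107 other genes, 8 to 49 passed over both ages and 4 to 26 at 4 weeks. The most passed without Dahl 6 weeks replicate 1. Leaving out an array gives fewer residual degrees of freedom. Signs turned only for differences near 0: Eml4 over both ages (-0.041 to 0.14), at 6 weeks (-0.19 to 0.17), with age in Dahl rats (-0.18 to 0.18) and in the interaction (-0.30 to 0.061), Stmn1 over both ages (-0.037 to 0.33), Tubb2b at 6 weeks (-0.28 to 0.32), Mapre1 (-0.14 to 0.023), Tubb5 (-0.40 to 0.11), Klc1 (-0.081 to 0.40), Actr1a (-0.015 to 0.21) and the shared alpha-tubulin probe set (-0.16 to 0.12) with age in Dahl rats, Klc1 (-0.039 to 0.31) and Actr1a (-0.0094 to 0.18) with age in SHR rats, and Klc1 (-0.22 to 0.27), Actr1a (-0.10 to 0.12) and Map1b (-0.052 to 0.32) in the interaction.

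With an intensity trend and robust variance, 3 of the 9 genes passed at 6 weeks and 31 of the 107 at 4 weeks. Quantile normalization gave 22 of the 107 over both ages, against 35 as reported, and turned Tubb2b at 6 weeks to -0.029. Median centring gave 2 of the 9 at 6 weeks, 2 with age in SHR rats, -0.013 for Tubb2b at 6 weeks and 0.0055 for Eml4 with age in Dahl rats. A minimum mean of 5 gave 2 of the 9 at 6 weeks and 3 with age in SHR rats. The probe set with the highest median gave 2 with age in SHR rats and -0.015 for Tubb5 at 6 weeks. The mean of a gene's probe sets turned Eml4 at 6 weeks (0.30), Klc1 with age in Dahl rats (-0.00022), Eml4 (-0.013) and Actr1a (-0.0020) with age in SHR rats, Klc1 (-0.12) and Map1b (-0.0094) in the interaction and Tube1 over both ages (0.053), ended the calls of Map1b over both ages (-0.19) and at 4 weeks (-0.19, adjusted p = 0.392 from limma) and of Mapre1 at 6 weeks (0.53, adjusted p = 0.0712), and brought in Actr1a over both ages (0.38, adjusted p = 0.0151), Klc1 at 4 weeks (0.60, adjusted p = 0.0420) and Tubb2a at 6 weeks (0.75, adjusted p = 0.0490). Fitting only the arrays of 4 weeks gave 2 of the 9 and 5 of the 107, and fitting only those of 6 weeks gave 0 of the 9. At a threshold of 0.1, 3 of the 9 passed at 6 weeks, 4 with age in SHR rats, and 64 of the 107 over both ages and 33 at 4 weeks. Tubb2b over both ages also lost its call in the additive model (adjusted p = 0.115), with strain alone (adjusted p = 0.128) and by Student's t-test. By that t-test 5 of the 9 passed, unadjusted and after Benjamini-Hochberg. By construction, strain alone and the t-test put differences between the ages into the spread, and the additive model puts only the interaction of strain and age into it. Tubb4b lost its call over both ages under the same 3. The causes of the other changes were not tested.

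The labels give the replicate numbers without saying whether they pair the rats. Differences between the replicates of 2 groups correlated at -0.23 to 0.24 across probe sets, and 1 of 6 pairs of groups was over 0.1. These values cannot exclude a pairing, as each difference rests on 1 rat against 1. With the replicate number as a block, 3 of the 9 passed at 4 weeks, and 23 of the 107 over both ages and 9 at 4 weeks. The block ended the calls of Klc1 (adjusted p = 0.0580) and Tubb2b (adjusted p = 0.0543) over both ages, Map1b (adjusted p = 0.0590) and Tubb2b (adjusted p = 0.0503) at 4 weeks and Tubb2a with age in SHR rats (adjusted p = 0.0762), and brought in Mapre1 there (adjusted p = 0.0457).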
